A study of Homo sapiens with 8 samples.

Results

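Interferon-stimulated genes are genes whose transcription is switched on when cells sense interferons. Described here are 55 of them, containing no IRF, STAT or HLA gene. They were chosen by name with earlier results of these data known. All 55 were found by symbol among the 61125 genes of the deposited table, and 49 had enough counts to be tested among the 14995 genes tested. RNA was sequenced from U-937, a human pro-monocytic leukemia cell line, after 72 h in culture. The groups were 250 µM L-ascorbic acid with 1 µM all-trans retinoic acid (LAA+ATRA), 1 µM all-trans retinoic acid alone (ATRA, a retinoid that drives myeloid differentiation), 250 µM L-ascorbic acid alone (LAA, vitamin C), and a vehicle of PBS and DMSO, the solvents of LAA and ATRA. Each group had 2 libraries, 8 in all. The same established line, in RPMI 1640 medium with fetal bovine serum, was used throughout, the labels name no added interferon, and they do not say whether cultures with a single compound also received the solvent of the other. Nothing says that the 2 libraries of a group came from separate cultures, so every p-value reflects just the spread of these libraries, and that spread may be technical.

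Type I interferons bind the receptor chains IFNAR1 and IFNAR2, whose kinases JAK1 and TYK2 phosphorylate STAT factors. With IRF9 these form ISGF3, which binds the interferon-stimulated response element (ISRE), whereas STAT pairs formed after interferon gamma bind the GAS element. The products of the target genes degrade or edit viral RNA, trap virions, block translation or regulate the pathway itself, and several of these genes are also known to respond to IRF1 and to retinoids in myeloid cells.

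Library totals ran from 18462552 to 24166770 estimated counts, and the 55 genes together took 0.177% to 0.228% of a library. All 13 markers of U-937 and the monocytic lineage had at least 10 counts over the 8 libraries, although MPO had only 70 counts in all. The summed level of these markers was 11600 to 12600 CPM (the count scaled to library size) with LAA+ATRA, 10100 to 10900 with ATRA, 5470 to 5670 with LAA and 5100 to 5320 in vehicle. Markers of plasmacytoid dendritic cells, the main interferon-producing cells of blood, summed to 6.6 to 8.15 CPM with LAA+ATRA, 7.55 to 9.62 with ATRA, 10.4 to 11.9 with LAA and 12.2 to 12.5 in vehicle. Most of that sum was the transcription factor TCF4, at a mean of 6.15 CPM with LAA+ATRA, 7.9 with ATRA, 10.6 with LAA, against 12.1 in vehicle, whereas CLEC4C, the surface marker of these cells, had 13 and 8 counts with LAA+ATRA, 5 and 7 with ATRA, and 0 in every library of the other groups. Among T and NK cell markers CD3D, CD3E, CD8A and KLRD1 had no count, as had the B cell marker MS4A1. The granule protease genes carried the higher sum of monocytic markers: ELANE averaged 5400 CPM with LAA+ATRA, 4590 with ATRA, 2110 with LAA, against 2110 in vehicle, and PRTN3 averaged 2530 CPM with LAA+ATRA, 2100 with ATRA, 609 with LAA, against 523 in vehicle. ANPEP (CD13) had the opposite order, with 186 CPM with LAA+ATRA, 206 with ATRA, 262 with LAA, against 327 in vehicle. The higher sum with ATRA ran alongside the rises described below, and its part in the results below was not tested.

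The control sequences of these genes are shown first, because ISGF3 and IRF factors are known to act through them. Promoters were matched for 44 of the 55 genes in a set of RefSeq promoters on GRCh38.p14, with a single promoter used per gene. USP18, IFIT2, IFITM2, OAS2, OASL, DHX58, MX2, GBP2, GBP5, TRIM22 and PML had no promoter in that set, which does not mean that RefSeq lacks them. In the 250 bases before the start, an ISRE-type core spelled GAAA, NN and GAAA in direct succession, searched on both strands with overlapping matches counted, was found in 25 of 44 members (56.8%), against 839 of 27305 promoters in all (3.07%). A GAS-type core spelled TTCNNNGAA was found in 7 of 44 members (15.9%) and in 6.78% of all promoters. The retinoid receptor half-site AGGTCA was found in 0 of 44 members and in 12.1% of all promoters. A match describes letters only, and no match says only that these letters are not in this window. The windows below run 5′ to 3′ on the strand of the gene, with the ISRE-type cores in capitals, and a core on the opposite strand reads TTTC, NN and TTTC. The windows are from members that hold a core, chosen to show ones that rose, fell, were not called or could not be tested with ATRA. The first is IFI6 at chr1:27672261-27672363 (minus strand), whose window holds 3 cores.
IFI6: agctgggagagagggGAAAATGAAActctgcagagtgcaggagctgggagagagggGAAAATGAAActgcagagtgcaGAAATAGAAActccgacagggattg
ISG15, at chr1:1013369-1013414 (plus strand), has 2 cores that overlap. This window lies before the RefSeq start, but GENCODE 29 begins the gene earlier, at 1001138.
ISG15: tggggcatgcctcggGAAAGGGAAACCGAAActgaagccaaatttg
IFIT3, IFIT1 and IFIT5 lie beside each other at chr10:89327826-89327899, chr10:89392492-89392544 and chr10:89414508-89414567 (all plus strand), with 2 cores each. IFIT3 and IFIT5 rose with ATRA and IFIT1 was not called.
IFIT3: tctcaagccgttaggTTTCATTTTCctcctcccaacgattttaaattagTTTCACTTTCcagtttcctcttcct
IFIT1: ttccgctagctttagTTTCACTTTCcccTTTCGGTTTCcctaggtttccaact
IFIT5: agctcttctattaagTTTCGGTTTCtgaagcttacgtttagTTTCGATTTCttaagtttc
OAS3 (chr12:112938316-112938473, plus strand) rose. Its window ends at the RefSeq start, and the GENCODE 29 gene position given below begins inside it, at 112938352.
OAS3: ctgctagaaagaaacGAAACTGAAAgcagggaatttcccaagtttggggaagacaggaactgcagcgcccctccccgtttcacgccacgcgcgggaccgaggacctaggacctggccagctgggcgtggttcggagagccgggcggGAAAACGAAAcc
HERC5 (chr4:88456979-88457069, plus strand) fell, with 3 cores of which 2 overlap.
HERC5: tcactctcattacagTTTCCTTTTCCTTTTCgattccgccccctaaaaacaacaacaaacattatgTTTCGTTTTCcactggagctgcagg
EPSTI1 (chr13:42992267-42992306, minus strand) had no count in any library.
EPSTI1: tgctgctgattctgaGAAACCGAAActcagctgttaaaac
By what the RNA did with ATRA, an ISRE-type core stood in 10 of 19 matched members that were higher (52.6%), 2 of 5 that were lower (40%), 8 of 14 that were not called (57.1%) and 5 of 6 that could not be tested (83.3%). The letters of the core were thus present in each of these classes. OAS1, SAMHD1 and IFI35, among the largest rises below, had matched promoters without an ISRE-type core.

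With ATRA, a part of the interferon-stimulated genes rose strongly, led by OAS1, SAMHD1, IFI35, GBP5 and IFI6, while USP18, HERC5, IFITM1, EIF2AK2, MX1, MX2 and IFI16 fell. Of the 49 tested members, 26 were called higher (53.1%) and 7 lower (14.3%) than vehicle at a Benjamini-Hochberg adjusted p under 0.05 in edgeR's quasi-likelihood test. Over all genes tested, 21.9% were called higher and 21% lower. The members were chosen with earlier results of these data known, so this contrast is no independent support. The median log2 fold change of the 49 was 0.58, from -1.33 to 3.79, against 0.00 over all genes. A change of at least 2-fold was reached by 17 of the members called higher and by 1 called lower, MX1. The share of all genes at that limit is not given here, so these counts describe the members only. The 7 lower calls became 2 without vehicle replicate 1, 4 without vehicle replicate 2 and 2 to 4 on FPKM values, a length-scaled unit, with USP18 called in every setting. In bulk RNA, more cells expressing a gene and more RNA per cell cannot be told apart.

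**Figure D1:**
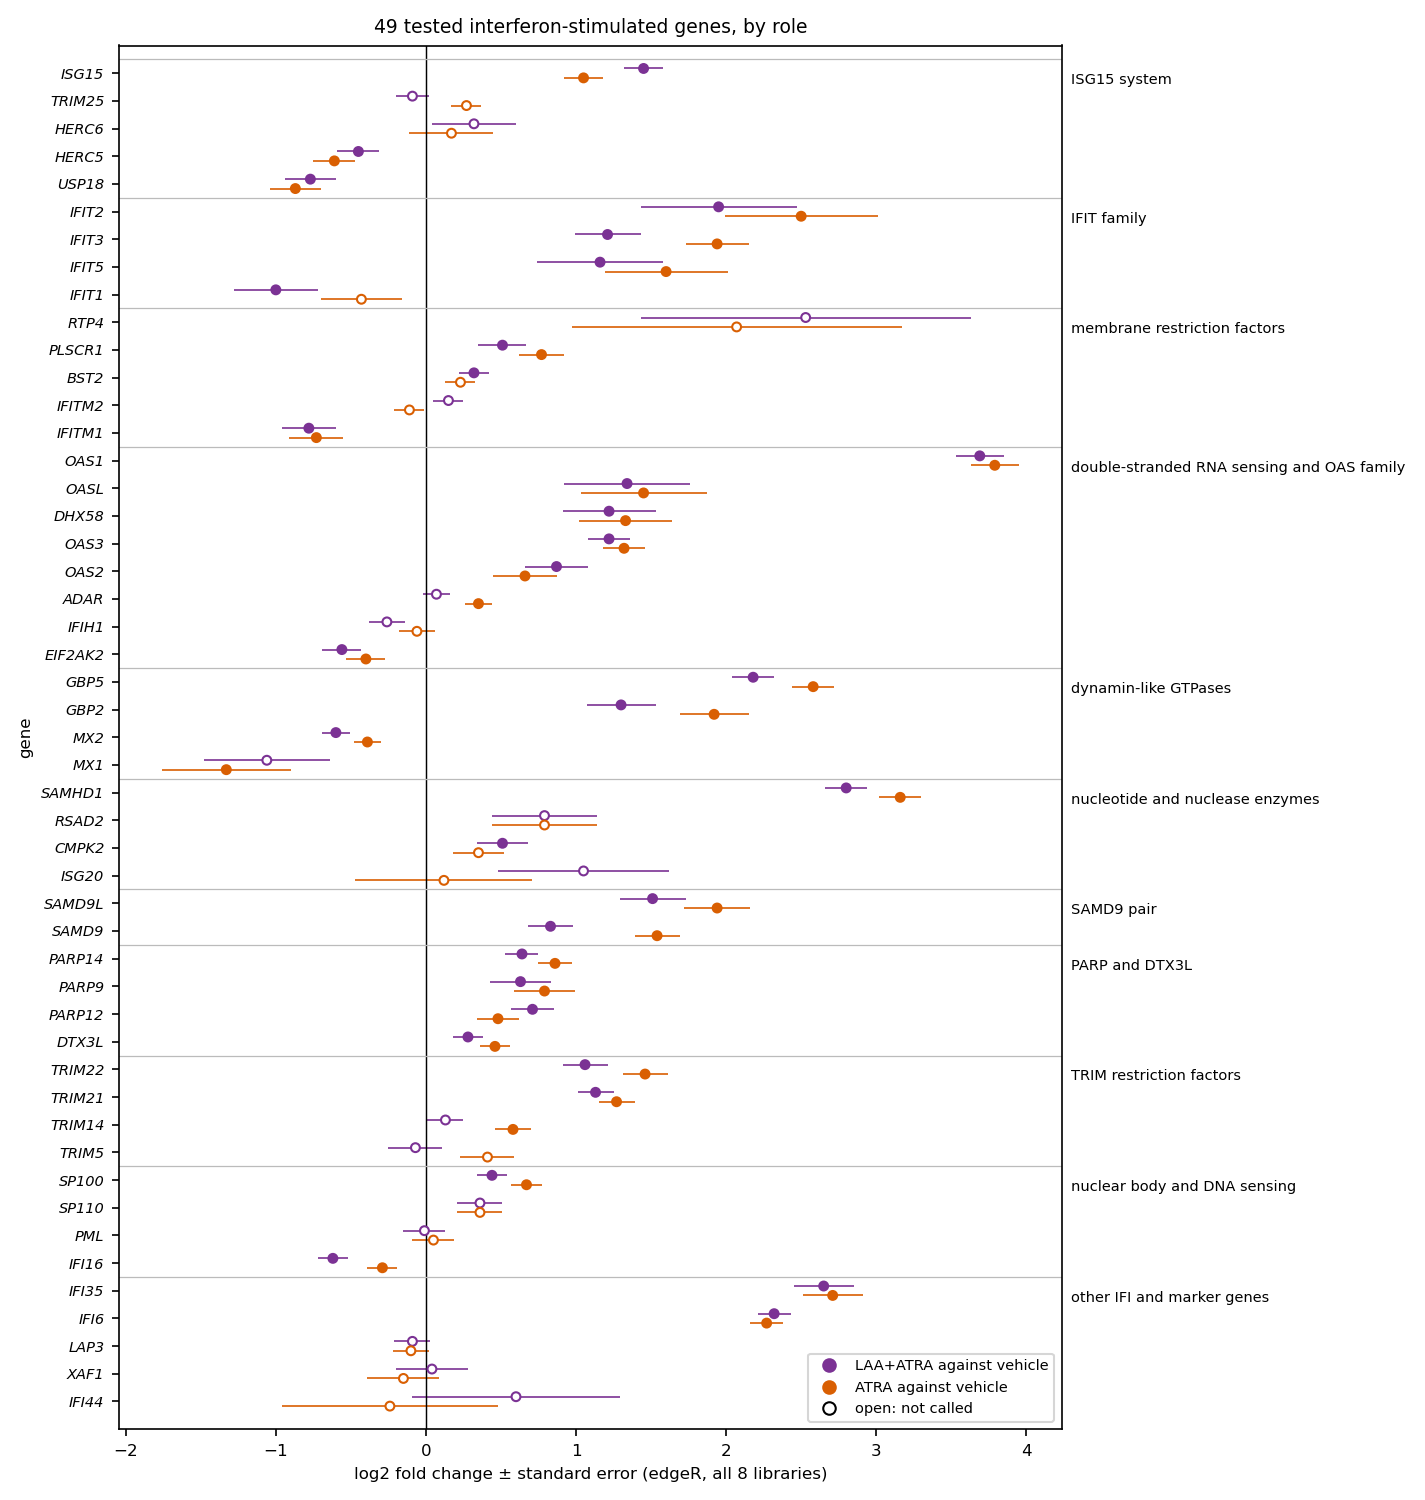
Log2 fold changes from edgeR of the 49 tested members for LAA+ATRA and for ATRA, each against vehicle, grouped by role. Points are estimates with their standard errors as horizontal lines, filled where called and open where not. In ATRA against vehicle the SAMD9 pair and the PARP and DTX3L group lie on the higher side, whereas the ISG15 system and the dynamin-like GTPases hold called members on both sides.

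The ISG15 system attaches the ubiquitin-like protein ISG15 to other proteins and removes it again, and its parts moved in opposite directions. ISG15 itself had 44.8 and 44.8 CPM with LAA+ATRA, 30.9 and 36.9 with ATRA, 24.8 and 28.5 with LAA, against 16.9 and 15.8 in vehicle. The 4 groups did not overlap, and the rise with ATRA was 2.08-fold (log2 fold change 1.05 ± 0.13 SE, edgeR adjusted p = 3.68e-05). USP18, the protease that removes ISG15 and also restrains signalling at IFNAR2, had 7.77 and 6.54 CPM with LAA+ATRA, 6.3 and 7.03 with ATRA, 11.7 and 11.8 with LAA, against 12.6 and 11.8 in vehicle. Every library with ATRA lay below every library without it (ATRA against vehicle, log2 fold change -0.87 ± 0.17, adjusted p = 0.0011). HERC5, the main ligase that attaches ISG15 in human cells, had 15.9 and 17.4 CPM with LAA+ATRA, 15.2 and 14.5 with ATRA, 22.2 and 19.5 with LAA, against 20.8 and 24.7 in vehicle. Its log2 fold change with ATRA was -0.61 ± 0.14 (adjusted p = 0.00342), and without vehicle replicate 2 the edgeR adjusted p was 0.0533. The related HERC6 (0.17 ± 0.28) and the RIG-I ligase TRIM25 (0.27 ± 0.1, adjusted p = 0.0547) were not called. The enzymes that precede HERC5 in the same chain rose: UBA7, which activates ISG15, was 4.25-fold higher with ATRA (log2 fold change 2.09 ± 0.13), and UBE2L6, which carries it, 1.38-fold (0.46 ± 0.1, adjusted p = 0.00326).

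The IFIT genes encode proteins that bind viral RNA lacking the marks of host mRNA, and they sit side by side on chromosome 10 in the order IFIT2, IFIT3, IFIT1, IFIT5. Of the 4, 3 were called higher with ATRA, against 21.9% of all genes, and IFIT1 was not called. IFIT3, which stabilises IFIT1 in a complex, had 6.43 and 7.84 CPM with LAA+ATRA, 11.1 and 12.6 with ATRA, 4.37 and 3.99 with LAA, against 2.7 and 3.49 in vehicle. The groups did not overlap, and the rise with ATRA was 3.83-fold (log2 fold change 1.94 ± 0.21, edgeR adjusted p = 1.74e-05). IFIT2 had 1.73 and 2.21 CPM with LAA+ATRA, 2.88 and 2.93 with ATRA, 1.79 and 0.946 with LAA, against 0.722 and 0.291 in vehicle. Its log2 fold change with ATRA was 2.50 ± 0.51 (adjusted p = 0.00179), with a wide standard error at these low levels. It was 3.29 without vehicle replicate 1 and 2.0 without vehicle replicate 2. IFIT2's highest group mean, 0.965 FPKM with ATRA, was under the minimum of 1 FPKM, so the filtered FPKM fits did not test it. With no FPKM filter it was called. IFIT5 had 2.52 and 2.26 CPM with LAA+ATRA, 2.77 and 3.71 with ATRA, 0.546 and 1.05 with LAA, against 0.963 and 1.16 in vehicle (ATRA against vehicle, log2 fold change 1.60 ± 0.41, adjusted p = 0.00748; adjusted p = 0.0547 without vehicle replicate 1 and 0.0617 without ATRA replicate 2). IFIT1, the member that binds uncapped or incompletely capped RNA, ran the other way, with 2.57 and 1.96 CPM with LAA+ATRA, 3.26 and 3.45 with ATRA, 4.17 and 4.47 with LAA, against 3.99 and 5.09 in vehicle. With ATRA alone it was not called (-0.43 ± 0.27, edgeR adjusted p = 0.21), and with LAA+ATRA it was called lower than in vehicle (-1.0 ± 0.28, adjusted p = 0.0106). The call with LAA+ATRA held in 11 of 16 other settings and was lost on FPKM values and with some libraries left out.

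Genes for sensing and destroying double-stranded RNA held the largest rise of the whole group. OAS1 makes the 2′-5′ oligoadenylates that trigger the decay of RNA. Its level was 43.7 and 42.4 CPM with LAA+ATRA, 46.5 and 46.1 with ATRA, 2.33 and 3.47 with LAA, against 3.56 and 3.1 in vehicle. The libraries with ATRA formed a tight high set and those without it a low one (ATRA against vehicle 13.9-fold, log2 fold change 3.79 ± 0.16, adjusted p = 6.22e-09 in edgeR). By GENCODE 29 on GRCh38, OAS1, OAS3 and OAS2 follow each other on chromosome 12, with OAS1 from 112906777 to 112933222 and OAS3 from 112938352 to 112973249, and their rises were unequal. OAS3 rose 2.49-fold (log2 fold change 1.32 ± 0.14) and OAS2 1.58-fold (0.66 ± 0.21, adjusted p = 0.0221). The OAS2 call held in 9 of 16 other settings and was lost in DESeq2, on FPKM, and without either vehicle library or ATRA replicate 1. OASL, a relative without synthetase activity that acts on RIG-I, had 2.18 and 2.01 CPM with LAA+ATRA, 1.94 and 2.55 with ATRA, 1.44 and 1.79 with LAA, against 0.674 and 0.97 in vehicle. It was called higher with ATRA (1.45 ± 0.42, adjusted p = 0.0143), and the libraries with LAA alone also lay above vehicle. That call was lost without vehicle replicate 1 (edgeR adjusted p = 0.102), without ATRA replicate 2 (adjusted p = 0.0916) and on log2(FPKM + 1) (limma adjusted p = 0.0507). DHX58, the RIG-I-like regulator LGP2, had 5.2 and 4.27 CPM with LAA+ATRA, 5.25 and 4.96 with ATRA, 2.18 and 2.26 with LAA, against 2.6 and 1.46 in vehicle (ATRA against vehicle, 1.33 ± 0.31, adjusted p = 0.00405). EIF2AK2, the kinase PKR that stops translation on double-stranded RNA, went the other way, at 39.5 and 46 CPM with LAA+ATRA, 49.3 and 46.4 with ATRA, 51.7 and 58 with LAA, against 69.8 and 56.7 in vehicle. Its fall was small (-0.40 ± 0.13, adjusted p = 0.0205) and was not called on FPKM values (limma adjusted p = 0.142), nor without vehicle replicate 1 (edgeR adjusted p = 0.253) or ATRA replicate 2 (adjusted p = 0.0931). The RNA editor ADAR was called higher at 1.28-fold, and the sensor IFIH1 (MDA5) was not called (-0.06 ± 0.12).

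Among enzymes that act on nucleotides, SAMHD1 stood apart from the others. It cleaves deoxynucleotides and limits retroviral replication in myeloid cells. It had 38.7 and 39.7 CPM with LAA+ATRA, 53.3 and 47 with ATRA, 5.96 and 5.15 with LAA, against 5.58 and 5.63 in vehicle, 8.93-fold higher with ATRA than in vehicle (log2 fold change 3.16 ± 0.14, edgeR adjusted p = 5.8e-09). SAMHD1 lies on chromosome 20 from 36889773 to 36951901 (GRCh38). RSAD2 (viperin), CMPK2 and the exonuclease ISG20 were not called, at log2 fold changes of 0.79 ± 0.35, 0.35 ± 0.17 and 0.12 ± 0.59. CMPK2 and RSAD2 overlap by 830 bases on opposite strands, and the strand setting of the counting is not given in the sources used here, so reads in that stretch cannot be assigned.

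The dynamin-like GTPases divided by family, with the guanylate-binding proteins higher and the MX proteins lower. GBP5, which promotes attack on membranes around microbes, had 27.7 and 29.8 CPM with LAA+ATRA, 36.1 and 39.8 with ATRA, 5.11 and 5.2 with LAA, against 5.92 and 6.79 in vehicle (ATRA against vehicle 5.97-fold, log2 fold change 2.58 ± 0.14). GBP2 of the same family had 7.32 and 5.78 CPM with LAA+ATRA, 9.46 and 10.7 with ATRA, 1.64 and 1.89 with LAA, against 2.84 and 2.47 in vehicle (1.92 ± 0.23). In both genes no library with ATRA overlapped one without it. GBP1 and GBP4 were too low to test, with 11 and 26 counts over the 8 libraries, all in libraries with ATRA. MX1, which blocks influenza virus, had 1.73 and 1.26 CPM with LAA+ATRA, 1.55 and 0.949 with ATRA, 2.08 and 4.2 with LAA, against 3.27 and 2.96 in vehicle. The fall with ATRA alone was called (-1.33 ± 0.43, adjusted p = 0.0239), and with LAA+ATRA it was not (-1.06 ± 0.42, adjusted p = 0.0578). The call with ATRA alone was lost without either vehicle library or ATRA replicate 2 (edgeR adjusted p 0.0616 to 0.149). MX2, which blocks HIV at the nuclear pore, lies next to MX1 on chromosome 21 and was far more abundant than it in counts. It had 85.4 and 84.3 CPM with LAA+ATRA, 97 and 98.8 with ATRA, 113 and 116 with LAA, against 132 and 125 in vehicle. The groups formed 4 separate steps, and the fall with ATRA was 1.31-fold (-0.39 ± 0.092, edgeR adjusted p = 0.00448), which was not called on FPKM values (-0.18, limma adjusted p = 0.221).

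**Figure D2:**
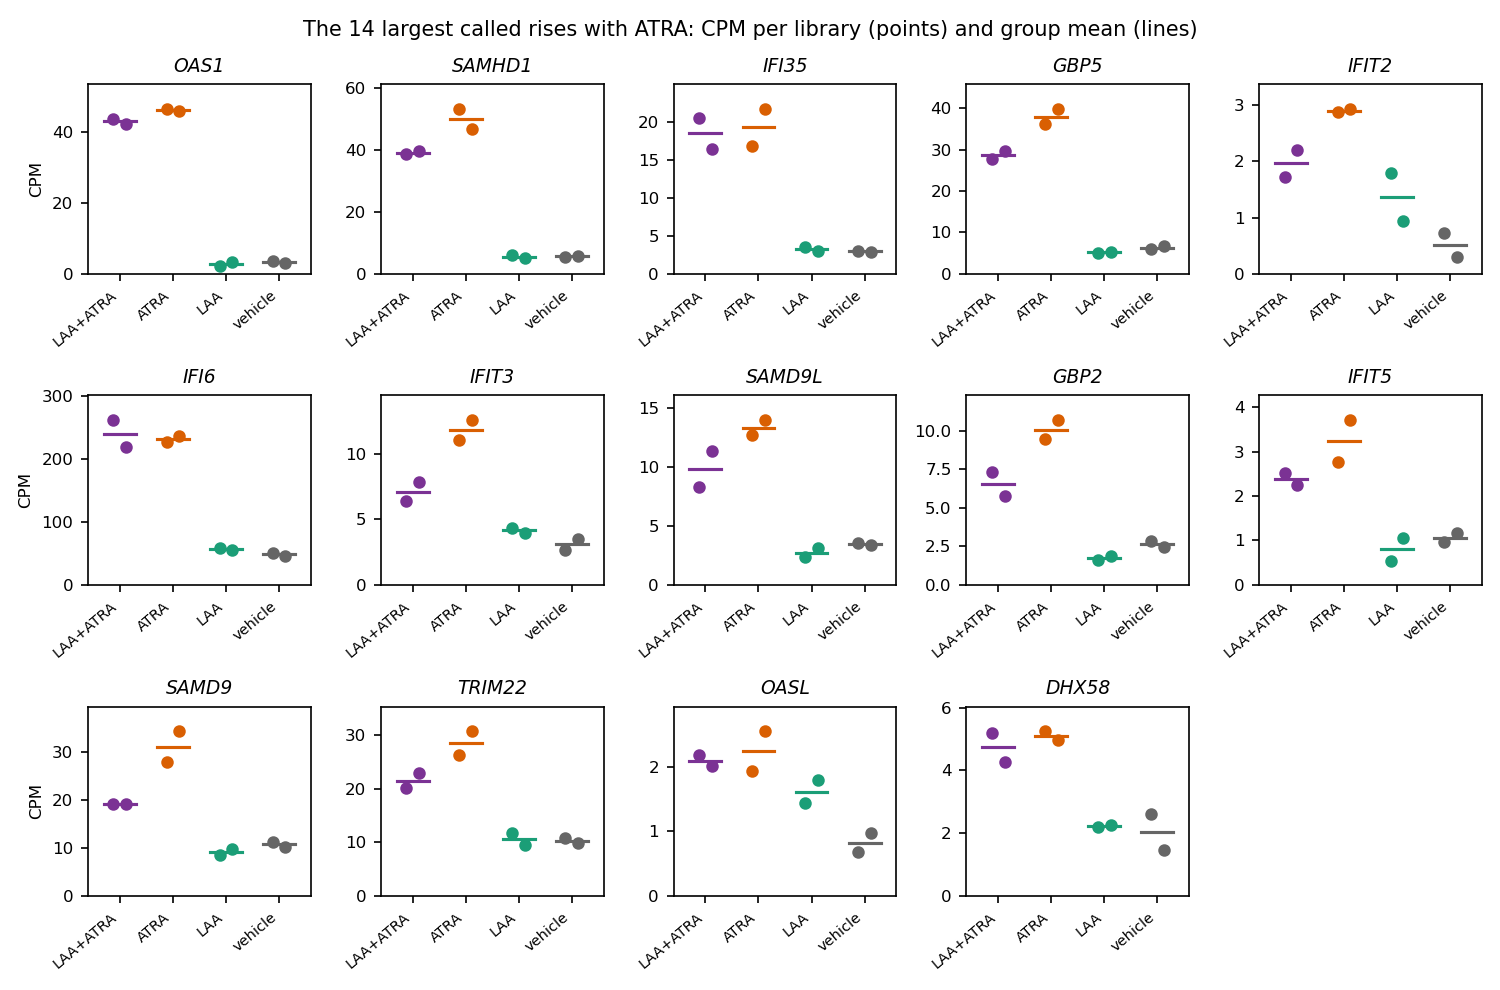
CPM in each library for the 14 members with the largest called rise with ATRA, 1 panel a gene, with the groups in the order LAA+ATRA, ATRA, LAA and vehicle. Each point is 1 library, each line the mean of the 2, and each vertical axis starts at 0. OAS1 sits between 42.4 and 46.5 CPM in the 4 libraries with ATRA and between 2.33 and 3.56 CPM in the other 4.

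Of 5 tested membrane restriction factors, 1 was called higher with ATRA (20%) and 1 lower (20%). These shares were near those of all genes, 21.9% higher and 21% lower. IFITM1, which hinders the entry of enveloped viruses, had 8.95 and 7.69 CPM with LAA+ATRA, 7.24 and 9.92 with ATRA, 14.5 and 14.8 with LAA, against 15.2 and 13.4 in vehicle. The libraries with ATRA lay below the others (-0.73 ± 0.18, edgeR adjusted p = 0.00524), with an adjusted p of 0.0518 without vehicle replicate 1. IFITM1 and IFITM2 overlap by 1767 bases on the same strand on chromosome 11 and the family is nearly identical in sequence, so the division of reads among IFITM1, IFITM2 and IFITM3 is uncertain. PLSCR1, a scramblase that strengthens the interferon response, was called higher (1.7-fold, 0.77 ± 0.15). IFITM2 (-0.11 ± 0.1), BST2 (tetherin, which holds virions at the cell surface, 0.23 ± 0.1, adjusted p = 0.0845) and RTP4 (2.07 ± 1.1, adjusted p = 0.152, at 1.16 CPM or less in every library) were not called.

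SAMD9 and its neighbour SAMD9L on chromosome 7, which restrict poxviruses and slow cell growth, both rose. SAMD9 had 19.1 and 19.1 CPM with LAA+ATRA, 27.8 and 34.3 with ATRA, 8.49 and 9.72 with LAA, against 11.2 and 10.2 in vehicle. SAMD9L had 8.33 and 11.4 CPM with LAA+ATRA, 12.7 and 14 with ATRA, 2.38 and 3.1 with LAA, against 3.56 and 3.4 in vehicle. The 4 groups were separate for each gene, and log2 fold changes with ATRA were 1.54 ± 0.15 for SAMD9 and 1.94 ± 0.22 for SAMD9L. SAMD9L was not called on FPKM values (0.82 on the log2(FPKM + 1) scale, limma adjusted p = 0.0519).

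All 4 genes of the PARP and DTX3L group, ADP-ribosyltransferases and a partner ligase, were called higher, against 21.9% of all genes. Their rises lay between 1.38-fold for DTX3L and 1.81-fold for PARP14. DTX3L and PARP14 kept the call in 16 of 16 other settings, PARP9 in 14 and PARP12 in 11. The PARP12 call was lost on FPKM values, among others. PARP9 and DTX3L, whose products form a complex, overlap by 340 bases on opposite strands, and reads from the overlap cannot be told apart where the counting's use of strand is not stated. Of the TRIM restriction factors, TRIM22 had 20.2 and 22.9 CPM with LAA+ATRA, 26.3 and 30.8 with ATRA, 11.8 and 9.51 with LAA, against 10.8 and 9.85 in vehicle (1.46 ± 0.15). TRIM21, a receptor for antibody-coated virus inside the cell, rose 2.4-fold and TRIM14 1.49-fold. The capsid-binding factor TRIM5 was not called (0.41 ± 0.18, adjusted p = 0.0846). TRIM5 and TRIM22 overlap by 47401 bases on opposite strands. All of TRIM22 lies inside TRIM5, so without a stated strand setting the division of reads between them is uncertain.

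In the nuclear body and DNA-sensing group, SP100 rose 1.59-fold (0.67 ± 0.1), although on FPKM values it was not called. Its partners PML (0.05 ± 0.14) and SP110 (0.36 ± 0.15, adjusted p = 0.0792) were not called. IFI16, a sensor of DNA, had 74.8 and 76.8 CPM with LAA+ATRA, 88.1 and 102 with ATRA, 104 and 103 with LAA, against 119 and 114 in vehicle. Its fall with ATRA was slight (-0.29 ± 0.1, edgeR adjusted p = 0.035), and the call held in only 5 of 16 other settings. Among others it was lost on FPKM values (-0.07, limma adjusted p = 0.669), with no low-count filter and in a fit to the compared libraries. With a library left out the estimate ran from -0.40 to -0.18. With LAA+ATRA the fall was -0.62 ± 0.1 (edgeR adjusted p = 0.00039), and it was not called on FPKM values (-0.27, limma adjusted p = 0.0967).

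Among the remaining members, IFI6 and IFI35 rose. IFI6, a small membrane protein that protects cells from death and from flaviviruses, had 261 and 218 CPM with LAA+ATRA, 226 and 236 with ATRA, 57.8 and 55.3 with LAA, against 49.7 and 46.4 in vehicle (ATRA against vehicle 4.81-fold, log2 fold change 2.27 ± 0.11). IFI35, the partner of NMI, had 20.6 and 16.4 CPM with LAA+ATRA, 16.9 and 21.7 with ATRA, 3.47 and 2.94 with LAA, against 2.98 and 2.91 in vehicle (6.55-fold, 2.71 ± 0.2). All libraries with ATRA lay above all libraries without it for both genes. IFI44, XAF1 and LAP3 were not called. IFI27, IFI44L and EPSTI1, which are widely used in blood signatures of interferon exposure, had 24, 1 and 0 counts over all 8 libraries, and IFITM3 had 45. These 4 could not be tested.

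**Figure D3:**
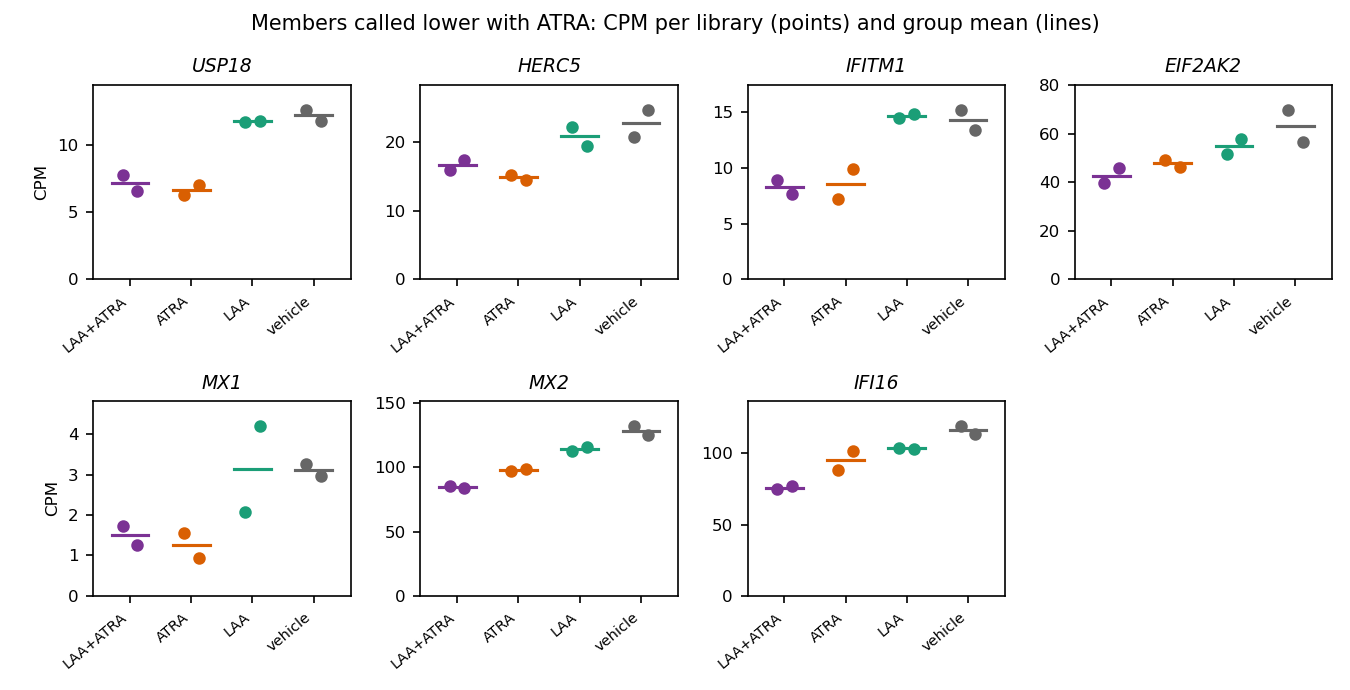
CPM in each library for the 7 members called lower with ATRA than in vehicle, 1 panel a gene, with the groups in the order LAA+ATRA, ATRA, LAA and vehicle. Points are libraries, lines are means of 2 and each vertical axis starts at 0. USP18 lies between 6.3 and 7.77 CPM in the libraries with ATRA and between 11.7 and 12.6 CPM in the others.

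Levels of different genes are comparable only per length, and on the deposited FPKM scale the 6 most abundant members in vehicle were IFITM2, BST2, IFI6, IFI16, MX2 and LAP3, at means of 555, 287, 87.6, 66.8, 49.4 and 43.6 FPKM. With ATRA alone IFI6 was the only one of the 6 called higher, at 457 and 403 FPKM with LAA+ATRA, 404 and 457 with ATRA, 104 and 97.3 with LAA, against 91.3 and 83.8 in vehicle. ISG15 followed them with 43.1 FPKM in vehicle. BST2 had 360 and 345 FPKM with LAA+ATRA, 315 and 370 with ATRA, 324 and 338 with LAA, against 281 and 292 in vehicle. IFITM2 had 816 and 670 FPKM with LAA+ATRA, 603 and 553 with ATRA, 686 and 711 with LAA, against 495 and 615 in vehicle. LAP3, a leucine aminopeptidase, stayed between 35.3 and 46.1 FPKM in all 8 libraries.

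With LAA alone none of the 49 interferon-stimulated genes was called higher or lower than vehicle in edgeR, against 0.02% called higher and 0.00667% lower over all genes. An unadjusted p under 0.05 was reached by 7 members (14.3%), 4 of them higher and 3 lower, against 18.9% of all genes. DESeq2 called 1, ISG15, and the share of all genes that it called is not given here. The median log2 fold change of the 49 was -0.05, against 0.01 over all genes. ISG15, whose library values are given above, was 1.63-fold higher with LAA (0.70 ± 0.13, adjusted p = 0.0509 in edgeR), just short of a call. DTX3L had 46.1 and 45.8 CPM with LAA+ATRA, 52.6 and 51.3 with ATRA, 30 and 32.4 with LAA, against 36.7 and 38.9 in vehicle (LAA against vehicle -0.28 ± 0.1, adjusted p = 0.171). IFIT2 had an estimate of 1.42 ± 0.53 (adjusted p = 0.174), on levels of 1.79 CPM or less in the LAA and vehicle libraries.

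LAA+ATRA against vehicle gave the same numbers of calls as ATRA against vehicle, 26 higher and 7 lower of 49, with 23.1% of all genes called higher and 21.5% lower. Both comparisons use the same vehicle libraries, so they are given side by side and not as independent results. Called higher in both were 24 members, with ADAR and TRIM14 called only for ATRA and BST2 and CMPK2 only for LAA+ATRA. Called lower in both were 6, with MX1 only for ATRA and IFIT1 only for LAA+ATRA. OAS1 was 12.9-fold higher with LAA+ATRA than in vehicle, SAMHD1 6.98-fold, IFI35 6.27-fold and IFI6 4.99-fold. Against LAA alone, LAA+ATRA gave 25 members higher and 6 lower, with 18.4% and 18% of all genes called, and OAS1 was 14.9-fold higher. RSAD2, not called against vehicle, was called there (1.13 ± 0.36, adjusted p = 0.0282), a call that held in 9 of 16 other settings and was lost in DESeq2, on FPKM, and without either LAA library or LAA+ATRA replicate 1.

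Setting LAA+ATRA against ATRA asks what LAA does on top of ATRA. Of the 49 members, 0 were called higher and 1 was called lower, SAMD9, against 0.493% and 0.52% of all genes. SAMD9 had 19.1 and 19.1 CPM with LAA+ATRA, against 27.8 and 34.3 with ATRA (log2 fold change -0.71 ± 0.14, adjusted p = 0.045 in edgeR). This call was lost when only the libraries compared were fitted (adjusted p = 0.135), on FPKM values and on leaving out any of 7 of the 8 libraries. An unadjusted p under 0.05 was reached by 15 members (30.6%), 13 lower and 2 higher, against 18.6% of all genes. DESeq2 called 5 lower (SAMD9, TRIM14, ADAR, TRIM25 and IFI16) and 0 higher. The share of all genes that DESeq2 called is not given here, so these 5 cannot be set against it. Both LAA+ATRA libraries lay below both ATRA libraries for 23 members (46.9%), against 22.9% of all genes, and above them for 8 (16.3%), against 21.2%. The median log2 fold change was -0.11, against 0.00 over all genes. The lower members included IFIT3 (-0.73 ± 0.2, adjusted p = 0.0884), TRIM14 (-0.45 ± 0.12, adjusted p = 0.0775), GBP2 (-0.62 ± 0.21), GBP5 (-0.40 ± 0.12) and SAMHD1 (-0.35 ± 0.12), none of which was called in edgeR with the low-count filter. TRIM14 was called in DESeq2 (adjusted p = 0.02) and with no low-count filter (edgeR adjusted p = 0.012), and IFIT3 with no low-count filter (adjusted p = 0.0306). ISG15 stood on the other side at 0.40 ± 0.12 (adjusted p = 0.116).

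The interaction asks whether both compounds together depart from their 2 separate effects added up on the log2 scale. No member was called in edgeR, as over all genes 0.00667% were called higher and 0% lower, and DESeq2 called none either. An unadjusted p under 0.05 was reached by 3 members (6.12%), against 4.98% of all genes, and all 3 estimates were negative. They were IFIT3 (-1.17 ± 0.3, adjusted p = 0.662), IFIT2 (-1.98 ± 0.7, adjusted p = 0.868) and SAMD9 (-0.47 ± 0.21, adjusted p = 0.986).

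**Figure D4:**
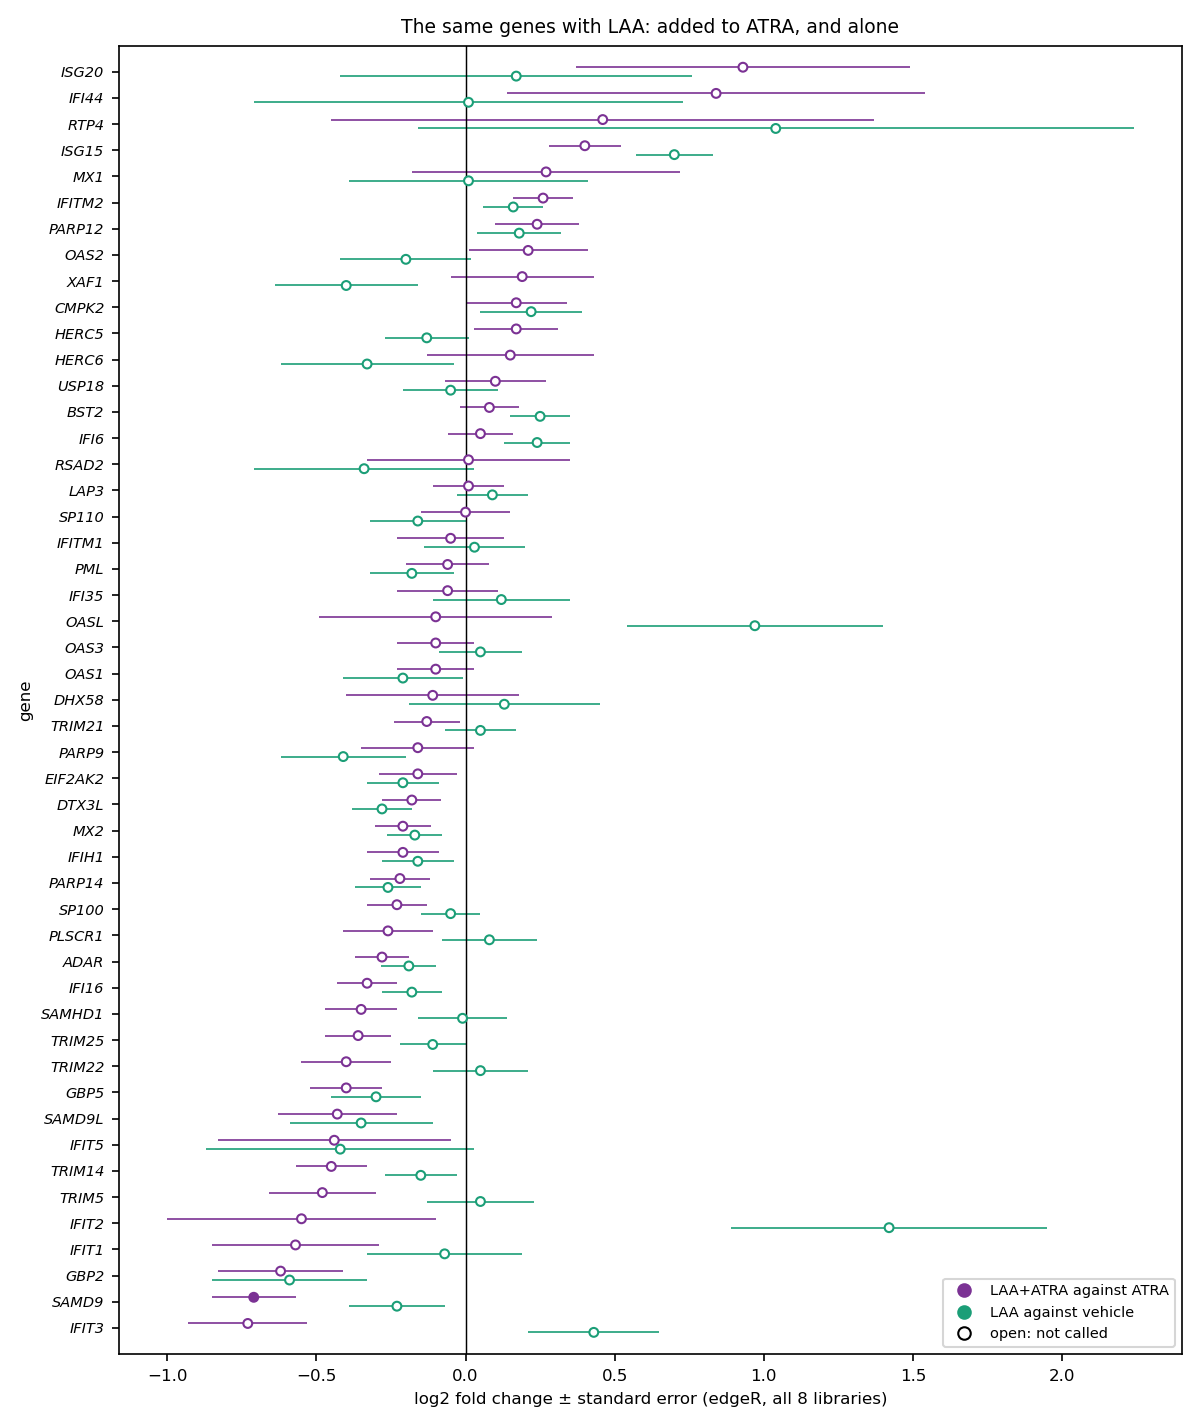
Log2 fold changes from edgeR of the 49 tested members for LAA+ATRA against ATRA and for LAA against vehicle, sorted by the first of these. Points are estimates with their standard errors as horizontal lines, filled where called and open where not. SAMD9 at -0.71 for LAA+ATRA against ATRA is the one filled point, and IFIT3 lies at -0.73 for LAA+ATRA against ATRA and on the higher side for LAA against vehicle.

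Around the members, the rest of the interferon pathway was read from lists of ligands, receptors, factors, sensors and inhibitors. Of 21 interferon genes, none had enough counts to test. IFNB1 had 2 counts, IFNA13 1 and IFNA21 1 over the 8 libraries, and the other interferon genes had 0. Outside the ligands, 37 of 59 tested pathway genes were called higher with ATRA and 3 lower, beside 21.9% of all genes called higher and 21% called lower. Receptors and Janus kinases gave 5 higher and 0 lower of 8. JAK2 was at 2.21-fold (1.14 ± 0.17), IL10RB at 1.67-fold, TYK2 at 1.61-fold and IFNGR1, a chain of the interferon gamma receptor, at 1.5-fold. The other chain, IFNGR2, had 58.3 and 65.4 CPM with ATRA, against 73 and 74 in vehicle, and was not called. IFNAR1 (-0.08 ± 0.096) and IFNAR2 (0.06 ± 0.12) were not called. The deposited table has 2 rows named IFNAR2, and the row with more counts was used.

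Transcription factors of the STAT and IRF families gave 6 higher and 0 lower of 10 with ATRA, against 21.9% higher and 21% lower over all genes. IRF1, which binds ISRE-type sequences and is known to respond to retinoids, had 124 and 117 CPM with LAA+ATRA, 136 and 141 with ATRA, 11.3 and 12.1 with LAA, against 16.5 and 14 in vehicle. IRF9 had 16.4 and 12 CPM with LAA+ATRA, 17.6 and 20.7 with ATRA, 5.06 and 6.57 with LAA, against 4.14 and 6.79 in vehicle (1.81 ± 0.24). STAT2 had 69.4 and 72.9 CPM with LAA+ATRA, 96.5 and 78.4 with ATRA, 32.7 and 29.9 with LAA, against 36.4 and 38.4 in vehicle (1.22 ± 0.12). IRF9 and STAT2, both parts of ISGF3, were thus called higher. IRF7, which drives interferon alpha genes, rose 3.48-fold (1.8 ± 0.14).

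Sensors and adaptors gave 5 higher and 2 lower of 12 with ATRA, against 21.9% higher and 21% lower over all genes. STING1, the adaptor for cytosolic DNA, had 321 and 266 CPM with LAA+ATRA, 439 and 421 with ATRA, 102 and 104 with LAA, against 110 and 109 in vehicle. It was 3.93-fold higher with ATRA than in vehicle, and it was the one pathway gene called between LAA+ATRA and ATRA (-0.55 ± 0.1, edgeR adjusted p = 0.0417). RIGI, named for induction by retinoic acid, had 2.74 and 2.87 CPM with LAA+ATRA, 0.94 and 3.97 with ATRA, 5.56 and 2.57 with LAA, against 0.626 and 2.62 in vehicle. Its groups overlapped and its libraries of a group differed up to several-fold, so no change was detectable (0.63 ± 0.66, adjusted p = 0.48). The kinase IKBKE rose 2.6-fold and the adaptor MYD88 1.85-fold. TLR9 (-2.06 ± 0.54) and TRAF3 (-0.77 ± 0.13) were the ones called lower. Inhibitors of the pathway gave 4 higher and 1 lower of 8, against the same 21.9% and 21% of all genes, with SOCS1 at 2.37-fold (1.25 ± 0.25).

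Of 21 further interferon-stimulated genes tested, 17 were called higher with ATRA and 0 lower, against 21.9% higher and 21% lower over all genes. This list too was chosen with earlier results of these data known, so it is no independent support. APOL1, a pore-forming lipoprotein component, had 10.9 and 7.29 CPM with LAA+ATRA, 10.2 and 10.8 with ATRA, 0.645 and 0.893 with LAA, against 0.529 and 0.534 in vehicle (4.29 ± 0.31). GBP3 rose 6.57-fold and DDX60L 3.25-fold. The chemokines CXCL9, CXCL10 and CXCL11, typical targets of interferon gamma, had 4, 12 and 26 counts over all libraries and could not be tested.

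**Figure D5:**
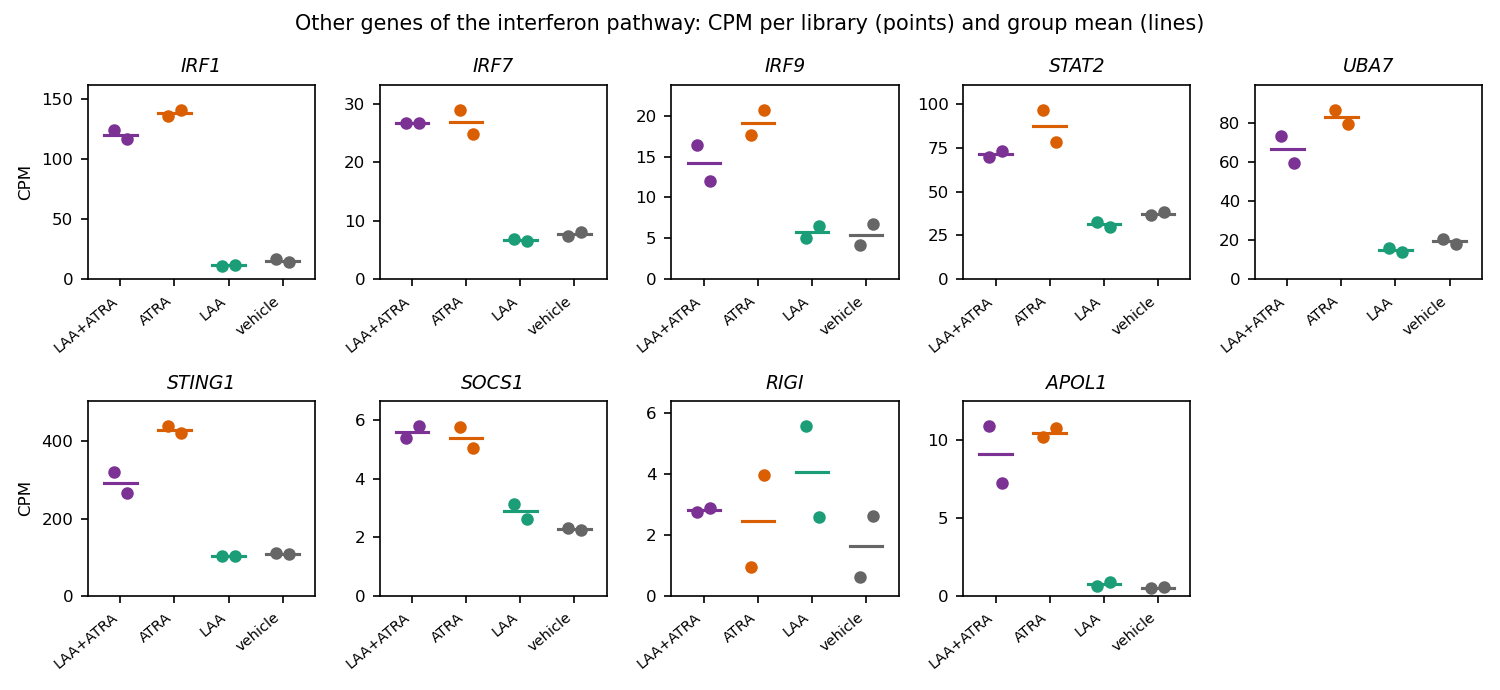
CPM in each library for 9 pathway genes outside the list of members, 1 panel a gene, with the groups in the order LAA+ATRA, ATRA, LAA and vehicle. Points are libraries, lines are means of 2 and each vertical axis starts at 0. IRF1 sits at 117 CPM or more in the libraries with ATRA and at 16.5 CPM or less in the others, and the points of RIGI overlap between groups.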

How the data were processed

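The authors deposited estimated counts per Ensembl gene with decimals, and FPKM values of the same genes. Salmon 1.8.0, DESeq2 1.36.0, GRCh38 and hg38 are named in the submitters' processing notes, with no annotation release or strand setting. Per the labels' protocols, mRNA was enriched with poly-T beads. The 55 members and the pathway and marker lists were chosen with earlier results of these data known.

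Estimated counts were rounded, which changed 16.5% of values. Low genes were removed with filterByExpr in edgeR 4.0.16 (R 4.3.3), libraries were scaled by TMM, and all 8 libraries entered 1 quasi-likelihood fit with 4 group means (4 residual and 8.2 prior degrees of freedom, common dispersion 0.0124). Two-sided p-values were adjusted by Benjamini-Hochberg over the 14995 genes of each of 6 comparisons, and a gene was called under 0.05. CPM are scaled by TMM. The model was tested on simulated data.

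Values in every library were given for the 14 largest called rises and all called falls with ATRA, for members called in LAA against vehicle, LAA+ATRA against ATRA or the interaction (the 3 smallest p where none was), and for the 6 highest by FPKM in vehicle. From each pathway list up to 4 called genes could be named, and RIGI always. IFNAR1, IFNAR2, IFNGR2, UBE2L6, TRAF3 and the CXCL chemokines were added after their values were seen. The alternatives were DESeq2 1.42.0, RLE scaling, no filter, a replicate block, a fit to the compared libraries only, limma 3.58.1 on log2(FPKM + 1) or log2(FPKM + 0.1) with a minimum of 1 FPKM or with none, and each library left out. Gene positions came from GENCODE 29 on GRCh38, which may differ from the authors' annotation and differs for some genes from the RefSeq starts of the promoters.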

Additional observations from a re-analysis of the deposited data

How the results depend on the processing

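Under 16 other settings none of the named values changed direction. Of 773 alternative values of 49 named results, 675 kept their side of the threshold, 86 lost the call and 12 gained one. For ATRA against vehicle, the 26 members called higher ran from 21 to 28 when 1 library was left out, and the 7 called lower from 2 to 7, with 2 without vehicle replicate 1 and 4 without vehicle replicate 2. The 7 became 4 on log2(FPKM + 1), 4 on log2(FPKM + 0.1) and 2 with no FPKM filter. Called in every setting were 16 of the 26 and 1 of the 7, USP18. For LAA+ATRA against vehicle, the 26 higher became 13 with no FPKM filter (19 to 26 with a library left out), and the 7 lower became 2, 3 and 2 on the FPKM fits (5 to 8). For LAA+ATRA against LAA, the 25 higher became 15 with no FPKM filter (18 to 26), and the 6 lower became 2, 2 and 2 on the FPKM fits (4 to 6). For LAA against vehicle, the 0 higher became 1 with DESeq2, 1 with no low-count filter and 2 in a fit to the compared libraries (ISG15 each time, with BST2 in the last; 0 to 1 with a library left out), and the lower stayed at 0. For LAA+ATRA against ATRA, the 1 lower became 5 with DESeq2, 3 with no low-count filter (SAMD9, TRIM14 and IFIT3), 0 in a fit to the compared libraries and 0, 0 and 0 on FPKM (0 to 1 with a library left out). These counts of members are given without the share of all genes called under the same setting, so they show only how the members' calls moved. Where 1 library remained in a group, its spread was taken from the other groups. The causes were not tested.

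The replicate numbers carry no stated meaning, and the deviations of same-numbered libraries correlated at -0.09 to 0.09, so the libraries were not paired. With the replicate number as a block, LAA+ATRA against ATRA gave 0 members lower (SAMD9 adjusted p = 0.0714 in edgeR) and IFI16 lost its call with ATRA (adjusted p = 0.0522). The fit to the compared libraries only is not defined for the interaction.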

Other observations

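For some members the fold change depended on whether counts or FPKM were read. FPKM divides by a gene length that the authors let differ between libraries. Over the 49 tested members the log2 ratio of ATRA to vehicle means differed between FPKM and CPM by a median of 0.01, and by over 0.3 in either direction for 9 members. For LAA against vehicle this was 8 members, with a median of 0.00. GBP2 was lower with LAA in CPM (log2 ratio of means -0.60) and higher in FPKM (0.48), and IFIT5 likewise (-0.41 in CPM and 0.99 in FPKM). With ATRA, GBP2 was at 1.92 in CPM and 2.93 in FPKM, and SP100 at 0.67 in CPM and 0.13 in FPKM. These are means of 2 libraries with no test, and what moved the lengths was not tested.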
